A study of Homo sapiens with 21 samples.

Results

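The nuclear-encoded genes of the respiratory chain were followed through 21 RNA-seq libraries of the human cell line HCC1806, which derives from a triple-negative breast cancer. The 57 genes were chosen by symbol as nuclear subunits of complexes I to IV plus the electron carrier cytochrome c, and all 57 were found among the 60668 genes of each deposited count table. They comprised 6 core and 29 accessory subunits of complex I, 4 subunits of complex II, 7 of complex III, 10 of complex IV, and CYCS. The first table held 3 groups. These were control cells (3xCTL), cells whose labels give joint overexpression of SRSF2, SRSF3 and SRSF7 (3xSR), and cells labelled as MYC overexpression (MYC-OE). The second table held control cells (1xCtrl) and 3 lines, each labelled with overexpression of a single factor, SRSF2 (SRSF2-OE), SRSF3 (SRSF3-OE) or SRSF7 (SRSF7-OE). Each of the 7 groups had 3 libraries, and all the cells were grown in 2D as adherent cultures. The SRSF genes encode SR proteins, which bind RNA and help choose splice sites, and the transcription factor MYC drives growth genes. The promoter and vector of each transgene, and whether a line is a clone, are not given in the sources used here, and the control cells of MYC-OE may not carry the same vector. The labels do not say whether replicates came from separate cultures, so each p-value measures only the spread between these libraries.

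The respiratory chain of the inner mitochondrial membrane passes electrons from NADH (complex I) and succinate (complex II) through complex III and cytochrome c to oxygen (complex IV), and it pumps protons that drive ATP synthase. Its catalytic centres lie in a few conserved core subunits, some of them encoded by mitochondrial DNA, and many small nuclear-encoded accessory subunits surround them. Promoters of such nuclear genes are known to hold sites for the factors NRF1, GABP (of the ETS family) and YY1, and MYC binds E-boxes.

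RefSeq promoter sequences (GRCh38.p14) were matched for 49 of the 57 genes. Over windows from 250 bases before to 50 bases after the start site, 4 motifs were searched on both strands, and matches were counted for each motif also where they overlapped. The NRF1 motif GCATGCGC was found in 10 of the 49 promoters (20.4%), against 3.27% of all 27305 promoters in the table. The ETS core CCGGAAG was found in 14 of them (28.6%, against 10.7% of all) and the YY1 motif AAGATGGC in 8 (16.3%, against 3.03%). The E-box CACGTG was found in 3 (6.12%, against 7.44%). Shown here are the 250 bases before the start site of 4 genes with a matched promoter, NDUFB4 with 5 calls against a control and SDHA, NDUFS6 and NDUFB11 with 4 each, so that the matches can be read beside genes with many calls. NDUFA6 and COX7C also had 4 calls, and the tie was settled by the larger mean absolute log2 fold change. Each runs 5′ to 3′ on its gene's strand, and capitals mark NRF1 motifs. NDUFB4 lies at chr3:120596086-120596335 (plus strand), SDHA at chr5:218070-218319 (plus), NDUFS6 at chr5:1801157-1801406 (plus) and NDUFB11 at chrX:47144703-47144952 (minus).
NDUFB4: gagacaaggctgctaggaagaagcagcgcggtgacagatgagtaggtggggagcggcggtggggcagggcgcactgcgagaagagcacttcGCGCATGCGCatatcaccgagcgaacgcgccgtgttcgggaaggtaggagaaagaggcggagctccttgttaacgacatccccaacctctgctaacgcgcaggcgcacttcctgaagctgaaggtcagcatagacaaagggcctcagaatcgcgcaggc
SDHA: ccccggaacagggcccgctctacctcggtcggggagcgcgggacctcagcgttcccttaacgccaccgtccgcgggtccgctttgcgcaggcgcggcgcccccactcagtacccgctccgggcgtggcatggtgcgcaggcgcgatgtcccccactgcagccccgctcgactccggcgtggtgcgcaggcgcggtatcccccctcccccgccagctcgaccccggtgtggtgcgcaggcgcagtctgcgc
NDUFS6: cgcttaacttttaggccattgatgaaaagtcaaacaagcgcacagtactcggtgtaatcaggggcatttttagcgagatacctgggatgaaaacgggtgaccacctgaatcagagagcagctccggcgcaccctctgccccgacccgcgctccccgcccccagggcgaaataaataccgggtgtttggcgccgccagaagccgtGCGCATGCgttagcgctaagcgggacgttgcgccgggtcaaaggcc
NDUFB11: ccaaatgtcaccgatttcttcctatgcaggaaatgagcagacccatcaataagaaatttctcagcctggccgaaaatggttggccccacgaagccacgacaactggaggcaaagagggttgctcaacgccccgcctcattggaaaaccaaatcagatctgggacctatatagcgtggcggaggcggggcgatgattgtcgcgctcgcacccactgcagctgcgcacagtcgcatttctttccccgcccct
The NDUFB4 promoter held a pair of overlapping matches, 1 on each strand, at 159 and 157 bases before the start site. That of NDUFS6 held 1 match, 46 bases before it, and none of the 4 motifs was found in the windows of SDHA and NDUFB11. Only the exact letters given were searched, so sites spelled otherwise would be missed. Of the tied genes not shown, the NDUFA6 window held the NRF1 motif 166 bases before the start site and the YY1 motif 25 bases after it, and that of COX7C held none of the 4. These windows rest on RefSeq's start sites. GENCODE release 29 places the outer end of the NDUFB11 gene at position 47145504, beyond this window.

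Depth lay between 143269192 and 303323552 counts per library, and no gene of the 57 had 3 counts or fewer in any library. Of the genes meant to be overexpressed, MYC was higher in MYC-OE (log2 fold change 0.90, adjusted p = 5.7e-08), SRSF3 in SRSF3-OE (0.49) and SRSF7 in SRSF7-OE (0.26). The SRSF2 count was not higher in the libraries labelled SRSF2-OE (-0.16, adjusted p = 0.098) or in those labelled 3xSR (-0.06, adjusted p = 0.39), where SRSF3 (0.31), SRSF7 (0.44) and MYC (0.75) rose. Other genes of these 4 changed as well. SRSF3 (0.30) and SRSF7 (0.24) were higher in SRSF2-OE, and MYC was higher in SRSF3-OE (0.26) and SRSF7-OE (0.27). SRSF2 was lower in SRSF7-OE (-0.38) and MYC-OE (-0.48). These labels are therefore used as names for the libraries. Mean levels of KRT5, a basal keratin, in every group were at 1662 to 2390 CPM (reads counted for a gene relative to each mega-count of library size), and those of PGR, the progesterone receptor, at most 1.27 CPM. ERBB2 was at 103 to 168 CPM and ESR1 at 6.77 to 11.1 CPM. Among markers of other cell types, the leukocyte gene PTPRC was at most 0.419 CPM, endothelial VWF at most 0.787 CPM, and the matrix gene LUM reached 37.6 CPM. In 2 control libraries, the genes richest in GC (the highest decile) departed from the other replicates. Their median deviation from the table's mean, on the log2 scale, was 0.60 in 1xCtrl replicate 2 against -0.15 and -0.39 in replicates 1 and 3, and -0.30 in 3xCTL replicate 2 against 0.25 and 0.20. The SRSF7-OE libraries also differed among themselves (0.24, -0.04 and 0.42). The value of 3xCTL replicate 2 lay near those of the 3xSR libraries (-0.26, -0.12 and -0.24). Counts of genes that passed the test are therefore given with and without the 2 control libraries, and neither count is taken as the cleaner one.

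Levels are given as CPM of the library size scaled by TMM, edgeR's trimmed-mean scaling, and comparisons between genes as CPM per kilobase of annotated exon. A level is a share of the RNA counted, so fewer cells with a transcript and less of it per cell cannot be told apart. By length, the small complex IV subunit COX6A1 was highest in 3xCTL (172 ± 11.4 CPM per kb, SD, n = 3), followed by the complex I subunit NDUFS5 (136 ± 7.97). The complex IV subunits COX6B1 (106.5 ± 4.17) and COX8A (105.2 ± 10.2) and the cytochrome c1 gene CYC1 (99.05 ± 13.7) came next and did not differ beyond their spread. The order of these 5 genes by mean was the same in 1xCtrl. It depends on the length used. Per kilobase of the longest transcript the order in 3xCTL was COX6A1 (301.6), COX6B1 (149.4), NDUFS5 (136.3), UQCRH (125) and SDHD (123.9), with CYC1 at rank 8 and COX8A at rank 9. Lowest in both controls was the core complex I subunit NDUFS7, with 2.03 ± 0.41 CPM per kb in 3xCTL. By role, the median level per kb in 3xCTL was 47.4 for complex IV, 32.9 for complex III, 28.9 for complex II, 16.6 for accessory and 13.8 for core subunits of complex I.

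Summed over the 57 genes, the level was 4556 ± 22.8 CPM in 3xCTL, 4558 ± 35.5 in 3xSR and 4999 ± 7.23 in MYC-OE (SD, n = 3 each). The 3 MYC-OE libraries (4990.5 to 5003.9) all lay above the 6 others of their table (4519.1 to 4588.5). In the second table the control sum was 4240 ± 135 CPM. The sums of the lines were 4782 ± 107 (SRSF2-OE), 4748 ± 94.3 (SRSF3-OE) and 4806 ± 70.4 CPM (SRSF7-OE). All 9 libraries of the single lines lay above the 3 of 1xCtrl, and the 3 lines overlapped each other. As a plain share of all counts, without the scaling, the genes took 0.417 to 0.458% in 1xCtrl and 0.445 to 0.464% in SRSF3-OE, which overlap. The 13 subunits encoded by mitochondrial DNA, which share these complexes, summed to 78557 ± 4384 CPM in 3xCTL and 63103 ± 1172 in MYC-OE. Their sums were 77855 ± 10503 in 1xCtrl and 62761 ± 3078 in SRSF7-OE. In MYC-OE and SRSF7-OE the nuclear sum was higher and the mitochondrial sum lower than in the control, and the plot of summed levels shows no overlap with the control in either. In SRSF7-OE the mitochondrial margin was narrow. Its highest library had 65132 CPM and 1xCtrl replicate 2 had 65911, against 85648 and 82005 in replicates 1 and 3. The mitochondrial sums of 3xSR (80244 ± 7510), SRSF2-OE (90024 ± 6478) and SRSF3-OE (81135 ± 10983) had higher means than their controls and overlapped them.

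**Figure D1:**
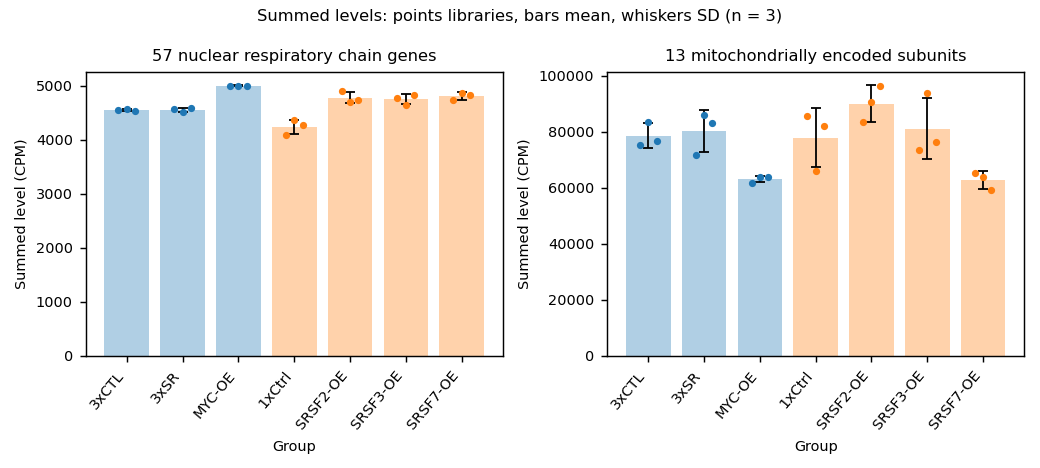
Summed level in CPM of the 57 nuclear respiratory chain genes (left) and of the 13 mitochondrially encoded subunits (right) by group, with points for libraries, bars for means from 0 and whiskers for the SD (n = 3). MYC-OE stands at 4999 CPM against 4556 in 3xCTL on the left, and below its control on the right.

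The MYC-OE comparison asked how the chain's genes stood when MYC was overexpressed. Of the 57 genes 23 were higher and 1 was lower than in 3xCTL, and their median log2 fold change was 0.14 against 0.00 over all 23160 genes tested. Among all genes 18.0% were higher and 17.3% lower, so the 40.4% of respiratory genes that rose lay above the background and the 1.75% that fell below it. Of 9097 other genes within the same range of levels, 20.4% were higher. A further 2 genes had an unadjusted p under 0.05 in the lower direction, 3 with CYCS. Without 3xCTL replicate 2 the counts were 29 higher and 6 lower, and on total counts alone 18 and 3.

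Accessory subunits of complex I carried most of this, with 15 of 29 higher and none lower. NDUFB4, a subunit of the membrane arm, stood at 49.9, 47.8 and 46.8 CPM in 3xCTL and at 71.5, 72.7 and 74.4 CPM in MYC-OE (log2 fold change 0.60 ± 0.05, SE; adjusted p = 1.44e-06). NDUFC2, also of the membrane arm, stood at 90.9, 85.2 and 91.1 CPM in the control and at 137, 138 and 124 CPM in MYC-OE (0.58 ± 0.06, adjusted p = 8.13e-06). For both genes every MYC-OE library was above every control library. NDUFA13, an accessory subunit also known as GRIM19, stood at 45.6, 39.8 and 49.2 CPM and rose to 60.4, 63.1 and 67.9 CPM (0.51 ± 0.08, adjusted p = 0.000296). NDUFA13 shares 568 exon bases on its strand with YJEFN3 and AC011448.1. Summed with them, its change was 0.25 and did not pass the test (adjusted p = 0.112).

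The other roles held fewer calls. Of the 6 core subunits of complex I 1 was higher, NDUFV2 (0.18 ± 0.06, adjusted p = 0.0439), and their median was -0.06. The NDUFV2 call was lost when its counts were summed with its named pseudogene. It was also lost on total counts alone, with the replicate block and without any single MYC-OE library. NDUFS1, the largest iron-sulphur subunit, had -0.13 (adjusted p = 0.178) and NDUFV1, which binds NADH, -0.08 (adjusted p = 0.619). SDHA, the flavoprotein that oxidises succinate, stood at 264, 234 and 265 CPM in 3xCTL and at 351, 333 and 353 CPM in MYC-OE (0.44 ± 0.06, adjusted p = 7.65e-05), while its iron-sulphur partner SDHB had 0.08 (adjusted p = 0.315). In complex III, UQCRFS1, the Rieske iron-sulphur protein, went from 99.2, 105 and 91.8 CPM to 141, 137 and 138 CPM (0.49 ± 0.06, adjusted p = 5.89e-05). These MYC-OE libraries again did not overlap the controls. UQCRQ, a small subunit of the same complex, was also higher (0.32 ± 0.06), and the other 5 complex III genes did not pass. Of the 10 complex IV genes 4 were higher, among them COX4I1 (0.24 ± 0.06) and COX6A1 (0.36 ± 0.06).

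CYCS, the mobile carrier between complexes III and IV that also triggers apoptosis once released, went the other way in MYC-OE. Its level was 210, 246 and 203 CPM in 3xCTL, 243, 243 and 239 CPM in 3xSR, and 152, 159 and 142 CPM in MYC-OE. All 3 MYC-OE libraries were the lowest of their table, and the change was 0.688-fold (log2 -0.54 ± 0.07, adjusted p = 9.51e-05). The call was kept under all 20 alternative analyses, between -0.59 and -0.45.

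**Figure D2:**
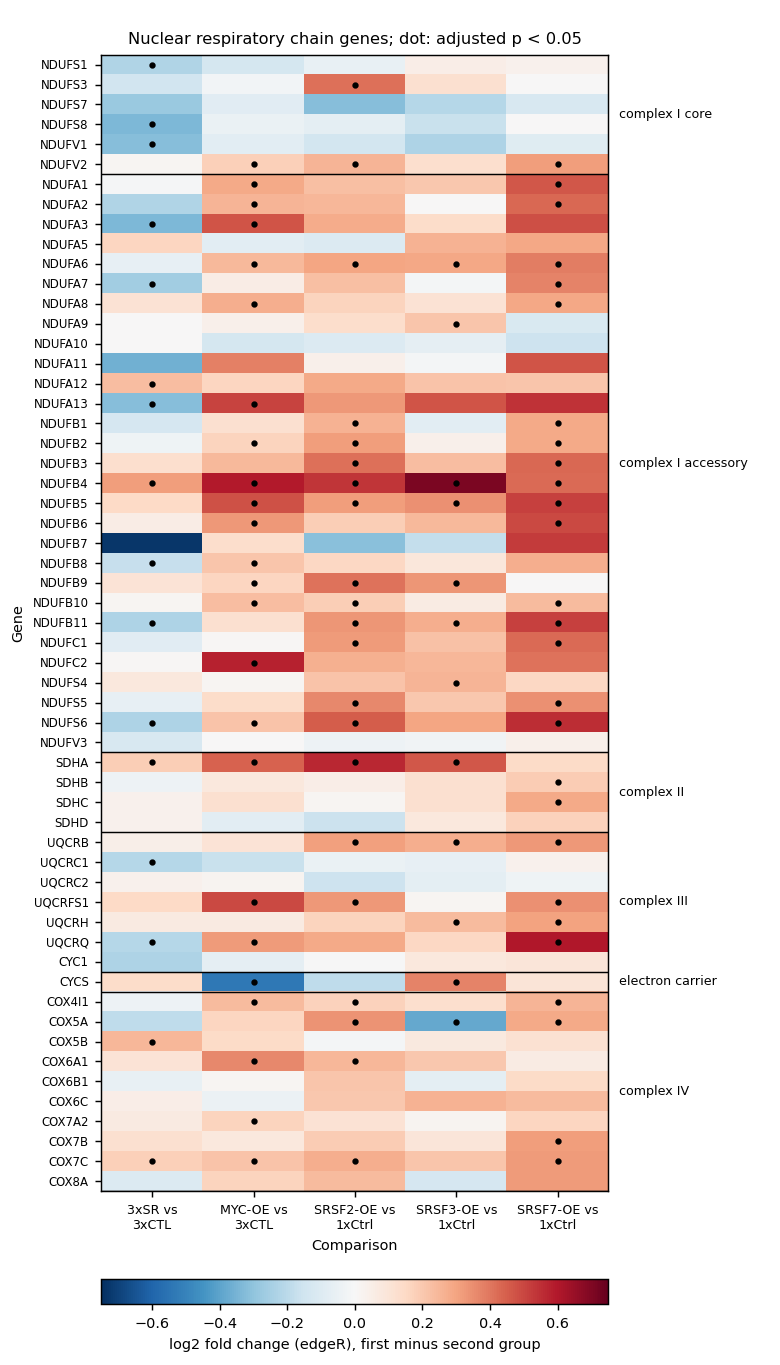
Log2 fold change (colour) of each of the 57 genes (rows, grouped by role) in the 5 comparisons with a control (columns), with a dot where the edgeR adjusted p is under 0.05. The accessory complex I block is mostly red in MYC-OE and SRSF7-OE, with 15 and 16 of 29 genes higher, and CYCS is blue in MYC-OE and red in SRSF3-OE.

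In the libraries labelled 3xSR the genes did not move together. There 5 of 57 were higher (8.77%, against 15.3% of all genes tested) and 11 were lower (19.3%, against 13.7%), with a median of -0.01 against 0.00 over all genes. Of other genes at like levels 18.5% were lower. The genes that rose were NDUFB4, COX5B, NDUFA12, SDHA and COX7C. NDUFB4 stood at 59.9, 60.1 and 59.2 CPM, above all 3 controls (0.31 ± 0.05, adjusted p = 0.000385). COX5B, a zinc-binding subunit of complex IV, went from 37.6, 32.5 and 34.8 CPM in 3xCTL to 39.8, 43.0 and 42.1 CPM (0.25 ± 0.06, adjusted p = 0.00919). NDUFA12, an accessory complex I subunit, rose by 0.23 ± 0.06 (adjusted p = 0.0181). Of the 16 calls, those of NDUFB4 and COX5B were the ones kept under all 20 alternatives.

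Core complex I subunits were prominent among the lower genes, with 3 of 6 called. NDUFS8, an iron-sulphur subunit, stood at 52.1, 39.5 and 52.3 CPM in 3xCTL and at 35.3, 41.0 and 37.9 CPM in 3xSR (-0.33 ± 0.10, adjusted p = 0.0311). NDUFV1 stood at 162, 122 and 159 CPM and then 107, 128 and 121 CPM (-0.32 ± 0.11, adjusted p = 0.046). NDUFS1 stood at 111, 117 and 96.9 CPM and then 97.6, 86.4 and 93.2 CPM (-0.23 ± 0.07, adjusted p = 0.03). For all 3 genes the groups overlapped, and for NDUFS8 and NDUFV1 the control in the range of the 3xSR libraries was 3xCTL replicate 2. Among accessory subunits NDUFA3 fell from 21.3, 15.5 and 19.998 CPM to 14.0, 15.6 and 15.6 CPM (-0.33 ± 0.10, adjusted p = 0.0306), and NDUFA13 by 0.32 (adjusted p = 0.00891). In complex III, UQCRC1 (-0.21 ± 0.06) and UQCRQ (-0.22 ± 0.06) were lower, and CYC1 had -0.23 (adjusted p = 0.0688). NDUFB7 had the lowest value, -0.73 ± 0.27, and as fitted it did not pass (adjusted p = 0.0861).

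GC content moved with these 3xSR values. Across the 57 genes the log2 fold change had a Pearson correlation of -0.72 with the GC content of the longest transcript, and all points share the same 6 libraries. The 15 genes above 55% GC had a median of -0.26 and the 20 genes below 45% a median of 0.06. The core complex I genes NDUFS3, NDUFS7, NDUFS8 and NDUFV1 were among those above 55%. Once each library's GC trend was removed by an offset, the correlation was -0.13 and the 15 GC-rich genes had a median of -0.06. Then 5 genes were higher and 7 lower. Of these calls 4 were new, the lower NDUFB7 (-0.40, adjusted p = 0.0332), NDUFB1 (-0.26) and COX5A (-0.21) and the higher NDUFA8 (0.13). The core complex I genes NDUFS3, NDUFS7 and NDUFV2 had -0.05, -0.06 and -0.07, against -0.14, -0.28 and 0.01 as fitted, and none of them passed. NDUFB4 (0.22), COX5B (0.33), NDUFA12 (0.18), SDHA (0.17), NDUFS1 (-0.31), NDUFA3 (-0.21), UQCRQ (-0.21) and NDUFS8 (-0.17) kept their calls, and NDUFV1 (-0.12), NDUFA13 (-0.08), UQCRC1 (-0.02) and NDUFB11 (-0.04) were among the 8 that lost them. In MYC-OE the correlation was 0.00 (-0.175 with the trend removed), and 22 of its 24 calls were kept. It was -0.37 in SRSF3-OE (0.188 with the trend removed), where the medians were -0.02 above 55% GC and 0.21 below 45%, and 0.154 and 0.136 with the trend removed. In SRSF2-OE it was -0.187 and in SRSF7-OE 0.03. Without 3xCTL replicate 2 the 3xSR counts were 15 higher and 18 lower, without 3xCTL replicate 1 they were 3 and 1, and without 3xCTL replicate 3 they were 3 and 3.

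**Figure D3:**
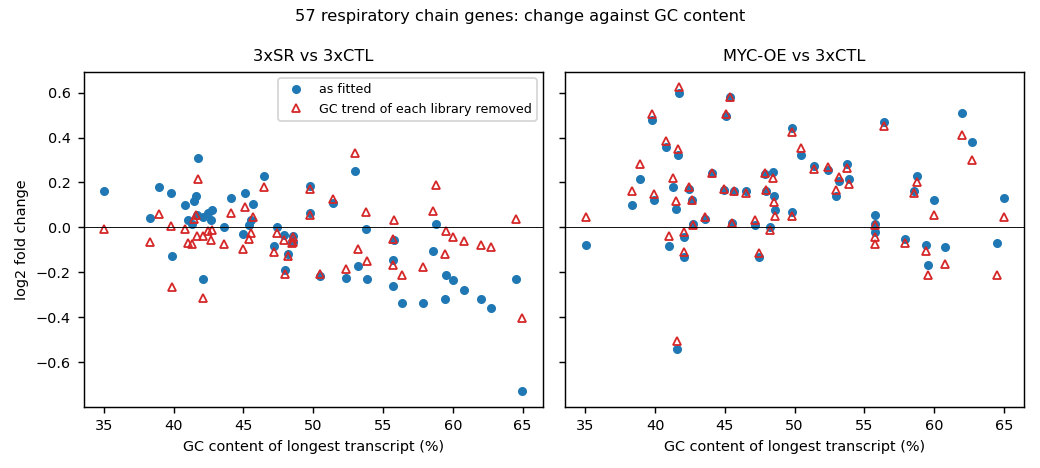
Log2 fold change of the 57 genes against the GC content (%) of their longest transcript in 3xSR (left) and MYC-OE (right), as fitted (blue circles) and with each library's GC trend removed (red triangles). On the left the blue circles fall with GC content (Pearson -0.72) and the triangles do so less (-0.13), and on the right the correlations are 0.00 and -0.175.

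Set directly against 3xSR within the same table, MYC-OE had 27 of the 57 genes higher and 2 lower, where 17.3% of all genes were higher and 17.6% lower. NDUFA13 differed by 0.82 ± 0.08 (adjusted p = 1.49e-05) and NDUFA3 by 0.80 ± 0.10 (adjusted p = 0.000145). NDUFB7 had the highest value, 0.86 ± 0.27 (adjusted p = 0.0441). The 2 lower genes were CYCS (-0.68 ± 0.07, adjusted p = 2.94e-05) and NDUFA5 (-0.24). With the GC trend removed the counts were 32 and 4. NDUFA5 then had 0.04 in MYC-OE and -0.01 in 3xSR against the control, so its value was no longer the lower one in MYC-OE.

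In the libraries labelled SRSF2-OE 21 genes were higher than in 1xCtrl (36.8%, against 11.6% of all 24362 genes tested) and 0 were lower (against 11.9%). At an unadjusted p under 0.05 there was 1 lower gene, and DESeq2 called 22 higher and 0 lower. The median of the 57 was 0.22 against -0.01 over all genes. SDHA stood at 240, 293 and 236 CPM in 1xCtrl and at 390, 375 and 371 CPM in SRSF2-OE (0.56 ± 0.07, adjusted p = 0.000166). NDUFB4 went from 52.6, 55.8 and 51.6 CPM to 77.6, 80.5 and 74.2 CPM (0.54 ± 0.07, adjusted p = 0.000242). NDUFS6, an accessory subunit of the matrix arm of complex I, went from 22.5, 31.9 and 23.1 CPM to 36.5, 34.1 and 35.8 CPM (0.46 ± 0.11, adjusted p = 0.00908). In each of these genes the SRSF2-OE libraries lay above all controls, and 1xCtrl replicate 2 was the highest control.

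By role, 12 of 29 accessory and 2 of 6 core subunits of complex I were higher in SRSF2-OE. The core genes were NDUFS3, which stood at 51.6, 53.0 and 58.2 CPM in 1xCtrl and 68.1, 76.9 and 72.2 CPM in SRSF2-OE (0.42 ± 0.07, adjusted p = 0.00082), and NDUFV2 (0.25 ± 0.06). NDUFB2 lost its call when summed with the genes that share its exons (0.14, adjusted p = 0.292). NDUFS3 kept its call when summed with PTPMT1, which shares exon bases on its strand (0.35, adjusted p = 0.000909). Complex II held 1 higher gene, SDHA, complex III held UQCRB (0.31 ± 0.08) and UQCRFS1 (0.32 ± 0.07), and complex IV held 4 of 10. Among the latter COX5A, a subunit that contacts COX4I1, went from 38.0, 31.1 and 40.2 CPM to 47.5, 44.2 and 46.6 CPM (0.34 ± 0.09, adjusted p = 0.0112). Without 1xCtrl replicate 2 the counts were 29 higher and 4 lower, and with replicate 1 left out instead they were 12 and 2. On total counts alone they were 14 and 2, and with the GC trend removed 22 and 3.

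In SRSF3-OE 11 genes were higher (19.3%, against 15.0% of all genes) and 1 was lower (1.75%, against 14.1%), with a median of 0.12 against -0.03. Of 9802 other genes at like levels 28.2% were higher, a larger share than among the 57. The median of these other genes was 0.07, nearer to that of the 57 than the median of all genes. NDUFB4 reached 85.3, 80.0 and 95.2 CPM, 1.63-fold over 1xCtrl (0.70 ± 0.07, adjusted p = 1.87e-05), the highest log2 fold change of the 100 calls in the 5 comparisons. SDHA stood at 359, 354 and 347 CPM (0.46 ± 0.07, adjusted p = 0.000417). For both, the groups did not overlap.

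Among the single lines, CYCS passed against the control in SRSF3-OE alone, and COX5A was called lower there alone. CYCS stood at 235, 186 and 236 CPM in 1xCtrl and at 290, 276 and 283 CPM in SRSF3-OE (0.37 ± 0.10, adjusted p = 0.00968). It stood at 210, 178 and 187 CPM in SRSF2-OE and at 214, 254 and 234 CPM in SRSF7-OE, and did not pass against the control in either. Directly compared, CYCS was higher in SRSF3-OE than in SRSF7-OE (0.27 ± 0.10, adjusted p = 0.0382), and lower in SRSF2-OE than in SRSF3-OE (-0.56 ± 0.10, adjusted p = 0.000811). CYCS was also called lower in SRSF2-OE than in SRSF7-OE (-0.29), so each pair of single lines differed in it. COX5A was at 28.5, 28.5 and 26.7 CPM in SRSF3-OE, below every library of its table, and fell by 0.39 from 1xCtrl (SE 0.09, adjusted p = 0.0041). It was at 44.8, 46.5 and 41.8 CPM in SRSF7-OE, where it rose (0.28 ± 0.09, adjusted p = 0.036). COX5A was the 1 complex IV gene of 10 that passed the test in SRSF3-OE, and no core complex I gene passed there.

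The SRSF3-OE counts depended on the scaling. On total counts alone, 5 genes were higher and 3 lower, and the median over all genes was itself -0.14. The respiratory genes' median was then 0.01, and remained above that of all genes. Without 1xCtrl replicate 2 the counts were 18 higher and 1 lower, and with the GC trend removed 20 and 3. The calls of NDUFB4, NDUFB5, NDUFB9, SDHA, COX5A and CYCS were kept under all 20 alternatives.

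In SRSF7-OE 27 genes were higher (47.4%, against 9.03% of all genes) and 0 were lower (against 8.26%). The median was 0.28 against 0.00 over all genes. Of 9232 other genes at like levels 13.7% were higher. At an unadjusted p under 0.05 there was 1 lower gene, and DESeq2 called 29 higher and 0 lower. UQCRQ went from 33.6, 45.004 and 34.2 CPM in 1xCtrl to 56.2, 50.9 and 64.3 CPM (0.60 ± 0.11, adjusted p = 0.00327). NDUFS6 stood at 36.6, 36.2 and 40.8 CPM (0.55 ± 0.11, adjusted p = 0.00472). NDUFB11, an accessory subunit encoded on the X chromosome, went from 19.99, 25.9 and 21.2 CPM to 30.7, 32.4 and 32.7 CPM (0.51 ± 0.09, adjusted p = 0.00243). In all 3 genes the SRSF7-OE libraries lay above the controls, whose highest was replicate 2.

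By role, SRSF7-OE had higher values in 16 of 29 accessory subunits of complex I, 1 of 6 core subunits (NDUFV2, 0.32 ± 0.06), 2 of 4 complex II genes, 4 of 7 complex III genes and 4 of 10 complex IV genes. NDUFB5 went from 45.3, 44.2 and 46.9 CPM to 63.3, 65.5 and 65.5 CPM (0.51 ± 0.06, adjusted p = 0.0001). In complex II the calls were SDHB (0.19 ± 0.06) and SDHC, a membrane anchor (0.28), while SDHA had 0.14 (adjusted p = 0.215). SDHA was lower in SRSF7-OE than in SRSF3-OE (difference of SRSF3-OE over SRSF7-OE 0.32 ± 0.07, adjusted p = 0.00412). UQCRFS1 (0.34 ± 0.07), UQCRB (0.33 ± 0.08) and UQCRH (0.30) were the other complex III genes. Without 1xCtrl replicate 2 the counts were 37 higher and 1 lower, without replicate 1 they were 14 and 1, and with SRSF7-OE and 1xCtrl fitted alone 9 and 0.

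**Figure D4:**
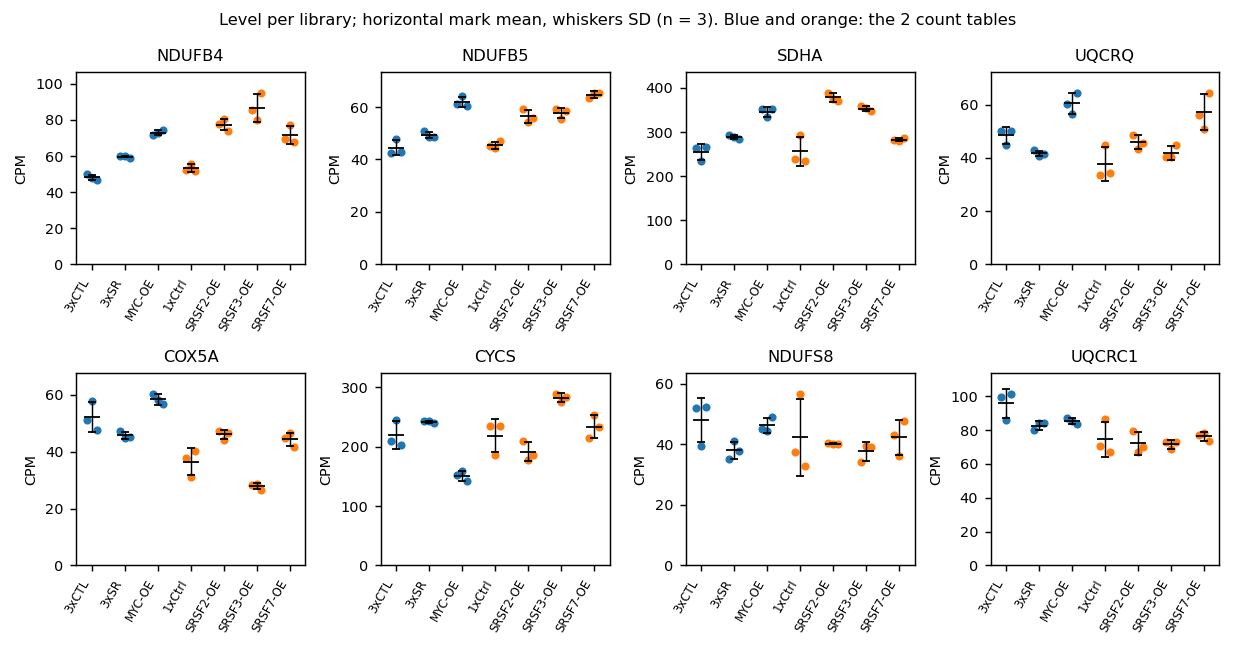
Level in CPM of 8 of the genes in every library by group (blue for the first count table, orange for the second), with a mark for the mean and whiskers for the SD (n = 3). NDUFB4 stands above its control in all 5 lines, CYCS is lowest in MYC-OE and highest in SRSF3-OE, COX5A is lowest in SRSF3-OE, and the NDUFS8 groups overlap.

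Across the 5 comparisons, 87 of 285 tests of these genes passed as higher and 13 as lower, and none reached a log2 fold change of 1 in either direction. The median size of a called change was 0.32. The comparisons within a table share their control libraries, so their calls are not independent of each other. NDUFB4 was higher in all 5, by 0.31, 0.60, 0.54, 0.70 and 0.42 in 3xSR, MYC-OE, SRSF2-OE, SRSF3-OE and SRSF7-OE. It has 12 named pseudogenes, whose counts came to at most 0.461% of its own. SDHA was higher in 4 of the 5, and its named pseudogenes held 9.80 to 16.3% of its counts. Summed with them, SDHA remained higher in 3xSR (0.155, adjusted p = 0.0485), MYC-OE (0.387), SRSF2-OE (0.475) and SRSF3-OE (0.396). There were 12 genes with no call as fitted in any of the 5, among them CYC1, UQCRC2, SDHD, NDUFS7 and COX6B1. With the GC trend removed, CYC1 was called lower in MYC-OE (-0.21) and UQCRC2 lower in SRSF2-OE (-0.19) and SRSF3-OE (-0.14). SDHD was then lower in SRSF2-OE (-0.16) and higher in SRSF7-OE (0.20), and NDUFS7 and COX6B1 still had no call.

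**Figure D5:**
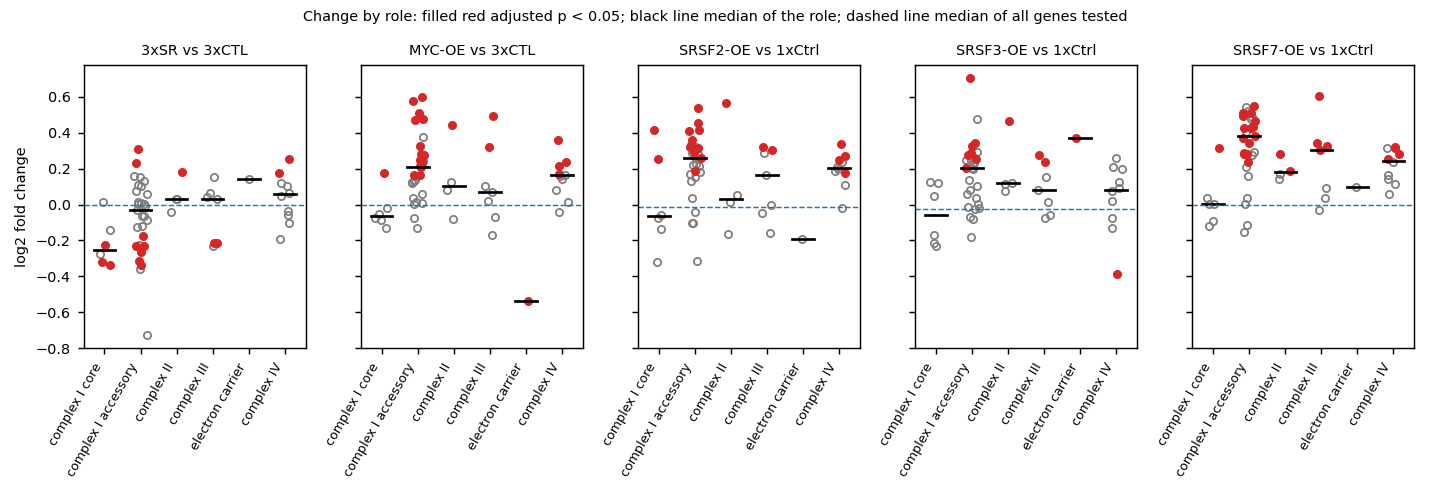
Log2 fold change of each gene by role (horizontal axis) in the 5 comparisons with a control, with filled red points at an edgeR adjusted p under 0.05, a black line for the role's median and a dashed line for the median of all genes tested. The accessory complex I median is 0.21 in MYC-OE and 0.38 in SRSF7-OE, and the core complex I median is -0.25 in 3xSR. All values are as fitted, with no GC trend removed.

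The single lines were also compared with each other. SRSF2-OE against SRSF3-OE had 6 higher and 3 lower, where 12.6% and 14.1% of all genes were called. COX5A was 1.65-fold higher in SRSF2-OE (0.72 ± 0.09, adjusted p = 5.59e-05). SRSF2-OE against SRSF7-OE had 4 higher and 5 lower, against 11.5% and 12.8%. There NDUFS3 (0.42 ± 0.07) and SDHA (0.42 ± 0.07) were higher in SRSF2-OE, and NDUFA5 (-0.40) and CYCS (-0.29) were among the lower. The NDUFS3 difference depends on PTPMT1, which shares 721 exon bases on its strand. Summed with PTPMT1, NDUFS3 changed against 1xCtrl by 0.35 in SRSF2-OE and by 0.20 in SRSF7-OE (adjusted p = 0.0286). Unsummed, its change in SRSF7-OE was 0.00. SRSF3-OE against SRSF7-OE had 5 higher and 13 lower, against 17.8% and 17.3%. The lower genes included COX5A (-0.67 ± 0.09, adjusted p = 5.35e-05), UQCRQ (-0.45 ± 0.11) and UQCRFS1 (-0.33 ± 0.07), and the higher ones NDUFB4 (0.28 ± 0.07) and NDUFB9 (0.33).

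Genes that build or regulate the chain were counted in the same fits. Their counts are read against the shares of all genes called higher and lower, which were 15.3% and 13.7% in 3xSR, 18.0% and 17.3% in MYC-OE, 11.6% and 11.9% in SRSF2-OE, 15.0% and 14.1% in SRSF3-OE, and 9.03% and 8.26% in SRSF7-OE. Of 16 nuclear ATP synthase genes, 2 were higher and 1 lower in 3xSR, and 5 and 1 in MYC-OE. SRSF2-OE had 7 and 0, SRSF3-OE had 3 and 0, and SRSF7-OE had 8 and 0. The 2 higher genes in 3xSR were a share below that of all genes, and the 3 in SRSF3-OE lay between the 15.0% of all genes and the 28.2% of genes at like levels. ATP5MC3, a subunit of the rotating c-ring, was higher by 0.42, 0.80, 0.61, 0.24 and 0.71 in that order. ATP5PD, of the peripheral stalk, was lower in MYC-OE (-0.29 ± 0.06). Of 22 complex IV assembly factors, 2 were higher and 1 lower in 3xSR, and 4 and 6 in MYC-OE. SRSF2-OE had 8 and 1, SRSF3-OE had 9 and 0, and SRSF7-OE had 7 and 0. The 4 higher in MYC-OE were near the share of all genes, the 2 in 3xSR were below it, and the 6 lower in MYC-OE were near the 25.2% of genes at like levels. The copper chaperone COX17 was higher by 0.74 ± 0.07 in MYC-OE, while COX20 (-0.65 ± 0.10) and COX11 (-0.60 ± 0.07) were lower there. SCO2, another copper-handling factor, was higher in SRSF2-OE (0.89 ± 0.17) and SRSF7-OE (0.96 ± 0.17). Of 14 complex I assembly factors, 5 were higher and 2 lower in 3xSR, and 4 and 3 in MYC-OE. SRSF2-OE had 3 and 0, SRSF3-OE had 5 and 1, and SRSF7-OE had 2 and 1. The 2 lower in 3xSR, the 3 lower in MYC-OE and the 2 higher in SRSF7-OE were near the shares of all genes or of genes at like levels. TIMMDC1, which helps build the membrane arm, rose by 0.56 ± 0.05 in 3xSR and by 0.77 ± 0.05 in MYC-OE.

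Smaller lists gave the following counts. Of 4 complex II assembly factors, 0, 2, 2, 1 and 1 were higher in 3xSR, MYC-OE and the SRSF2-OE, SRSF3-OE and SRSF7-OE lines in that order, and SDHAF4 was lower in SRSF2-OE (-0.52 ± 0.17). Of 6 complex III assembly factors 1, 3, 1, 0 and 1 were higher, and LYRM7 was lower in MYC-OE (-0.23) and SRSF2-OE (-0.60). Of 6 further respiratory subunits 1, 3, 2, 2 and 3 were higher, and UQCR10 was lower in 3xSR (-0.30) and higher in SRSF7-OE (0.66). Tissue-restricted isoforms were measurable for 4 of 7 genes, of which COX6B2 was lower in SRSF2-OE (-0.90) and SRSF3-OE (-1.34), NDUFA4L2 lower in SRSF3-OE (-1.01), and COX4I2 higher in MYC-OE (0.61).

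Of 12 regulators of these genes, 5 were higher and 1 was lower in SRSF3-OE, where 15.0% of all genes and 28.2% of the other genes at the members' levels were higher. TFB2M, a mitochondrial transcription factor, stood at 28.8, 28.2 and 31.9 CPM in 1xCtrl and at 46.5, 40.7 and 45.2 CPM in SRSF3-OE (0.58 ± 0.07, adjusted p = 3.9e-05). TFAM, which packages mitochondrial DNA (0.39 ± 0.06), YY1 (0.31 ± 0.09) and PPRC1, a coactivator of the PGC-1 family (0.29 ± 0.06), were also higher. PPARGC1A, the coactivator PGC-1 alpha, was at 0.262 to 0.320 CPM in SRSF3-OE and 0.0496 to 0.0789 CPM in 1xCtrl (2.09 ± 0.73, adjusted p = 0.047), a low level in both. It did not pass in 3xSR (3.64 ± 1.38, adjusted p = 0.069; 0.0823, 0.142 and 0.0489 CPM) or in MYC-OE (2.76 ± 1.40, adjusted p = 0.15; 0.0284, 0 and 0.119 CPM). No fold is read from these, since the 3xCTL libraries stood at 0, 0.0216 and 0 CPM. PPARGC1B, the related PGC-1 beta, was lower in MYC-OE (-0.48 ± 0.06), SRSF2-OE (-0.69 ± 0.07), SRSF3-OE (-0.20 ± 0.07) and SRSF7-OE (-0.34 ± 0.07). In MYC-OE GABPB1 (-0.35 ± 0.09) and PPRC1 (-0.27 ± 0.05) were lower too, and none of the 12 was higher. These 3 lower genes of 12 were near the background share. In MYC-OE 17.3% of all genes and 25.2% of the other genes at the members' levels were lower. NRF1 had values between -0.07 and 0.10 in the 5 comparisons and passed in none. GABPA was higher in 3xSR (0.24 ± 0.07), and in SRSF7-OE TFAM was higher (0.25 ± 0.06) and PPRC1 lower (-0.19 ± 0.06). ESRRA (-0.16 to 0.27), TFB1M (-0.13 to 0.21) and POLRMT (-0.23 to 0.19) passed in none of the 5.

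Of the 13 mitochondrially encoded subunits, 12 were lower in MYC-OE and 4 in SRSF7-OE, 4 were higher in SRSF2-OE and 1 in 3xSR, and 0 passed in SRSF3-OE. MT-ND1, a core subunit of complex I, went from 5175, 5440 and 5369 CPM in 3xCTL to 3275, 3312 and 3528 CPM in MYC-OE (-0.66 ± 0.08, adjusted p = 4.3e-05).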

How the data were processed

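PolyA-selected stranded RNA libraries were sequenced as paired-end reads, per the labels' protocols. The authors deposited 2 tables of whole-number counts per gene, not scaled to a common total. The submitters' processing notes name Trimmomatic 0.39, STAR, StringTie 2.1.3b and the build GRCh38.p13, without their roles. The annotation release, the strand setting and whether a read pair counts once are not given in the sources used here. Libraries were grouped by their titles. For each table, edgeR 4.0.16 (R 4.3.3) filtered low genes (filterByExpr with a minimum count of 10 and a minimum total of 15), applied TMM scaling and fitted all groups robustly, and contrasts were tested by quasi-likelihood. P-values were two-sided and adjusted by Benjamini-Hochberg over all genes tested, with a threshold of 0.05. Symbols matched 60295 identifiers, and lengths, GC content and shared exons came from GENCODE release 29, which may not be the authors' release. Exons are shared with another gene of the same strand for 17 of the 57 genes, and for 14 with genes of the opposite strand alone. The procedure was tested on simulated counts. DESeq2 1.42.0 and limma 3.58.1 (voom) were alternatives. Genes printed with values are the main subunits of each complex, the 3 highest and 3 lowest called per comparison, the 2 highest and lowest called of each list and the regulators. A few other genes (NDUFB7, NDUFB5, NDUFB9 and NDUFA5 among them) were named after their values were seen. The members, lists and promoter rule were chosen with earlier results of these data known. Precision was limited by the spread between replicates (chi-square per degree of freedom 17.1 to 302 between replicates), and counting intervals would cover counting error only. Figures were drawn with matplotlib.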

Additional observations from a re-analysis of the deposited data

Results flagged for a closer look

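Effects of opposite sign in lines of the same table, each called against the shared control and with a called difference in the direct comparison (edgeR, adjusted over all genes), were found for 6 of the genes. NDUFA13 was higher in MYC-OE (0.51) and lower in 3xSR (-0.32), a difference of 0.82 ± 0.08 (adjusted p = 1.49e-05). Summed with the genes that share its exons, NDUFA13 did not pass in MYC-OE (0.25, adjusted p = 0.112) and remained lower in 3xSR (-0.39, adjusted p = 0.0271). NDUFA3 was higher by 0.47 and lower by -0.33, a difference of 0.80 ± 0.10. UQCRQ (0.32 and -0.22) differed by 0.54 ± 0.06, NDUFS6 (0.22 and -0.23) by 0.45 ± 0.08 and NDUFB8 (0.21 and -0.17) by 0.38 ± 0.06. With the GC trend of each library removed, UQCRQ (0.35 and -0.21) and NDUFA3 (0.45 and -0.21) kept both calls, while NDUFA13 (-0.08), NDUFS6 (-0.15) and NDUFB8 (-0.10) lost the one in 3xSR. COX5A was higher in SRSF2-OE (0.34) and SRSF7-OE (0.28) and lower in SRSF3-OE (-0.39), with differences of 0.72 ± 0.09 (SRSF2-OE over SRSF3-OE) and -0.67 ± 0.09 (SRSF3-OE over SRSF7-OE). COX5A kept these 3 calls with the GC trend removed (0.33, 0.32 and -0.34). The libraries labelled 3xSR and SRSF2-OE did not show a higher SRSF2 count.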

How the results depend on the processing

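Every call of the 5 comparisons with a control kept its direction under all 20 alternatives. Calls kept past the threshold under all of them numbered 2 of 16 in 3xSR, 14 of 24 in MYC-OE, 9 of 21 in SRSF2-OE, 6 of 12 in SRSF3-OE and 8 of 27 in SRSF7-OE. Counts are given as higher and lower. In 3xSR (5 and 11) they were 3 and 13 on total counts alone, 3 and 8 without a filter, 3 and 3 with only the 2 groups fitted, and 5 and 7 with the GC trend removed. In MYC-OE (23 and 1) the lower count was 3 on total counts alone, 2 with DESeq2, 2 with the length trend removed and 4 with the GC trend removed, alone or with the replicate block. In SRSF2-OE (21 and 0) they were 14 and 2 on total counts alone, 13 and 1 without a filter, 11 and 1 with 2 groups, 12 and 0 with the length trend removed, and 22 and 3 with the GC trend removed (21 and 3 with the block). In SRSF3-OE (11 and 1) they were 6 and 1 with upper-quartile scaling, 5 and 3 on total counts alone, 6 and 1 without a filter, 5 and 1 with 2 groups, 19 and 1 with the length trend removed, and 20 and 3 with the GC trend removed (17 and 3 with the block). In SRSF7-OE (27 and 0) they were 9 and 0 with 2 groups, and 33 and 1 with the GC trend removed (31 and 1 with the block). With the length trend removed, 17 of 24 calls were kept in MYC-OE (2 new) and 18 of 27 in SRSF7-OE (1 new). On total counts alone 19 of the 24 MYC-OE calls were kept (2 new). The median exon length was 2462 bases for the 57 genes, against 3592 and 3446 over all genes tested in the 2 tables. Their changes had Spearman correlations with length of -0.32 in MYC-OE, -0.28 in SRSF2-OE and -0.44 in SRSF7-OE. In 3xSR it was 0.02 and in SRSF3-OE -0.004. Removal of the GC trend also gave 4 lower in MYC-OE against 3xSR, 10 higher in SRSF2-OE against SRSF3-OE and 11 lower in SRSF2-OE against SRSF7-OE. For the direct comparisons RLE scaling, the block and the GC trend were tried.

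With the replicate block the counts were 4 and 6 in 3xSR, 20 and 1 in MYC-OE, 17 and 0 in SRSF2-OE, 7 and 1 in SRSF3-OE, and 23 and 0 in SRSF7-OE. Same-numbered libraries of different groups had correlations of their deviations between -0.53 and 0.18, with 3 of 27 above 0.1. These deviations also carry each library's GC trend. The correlations therefore cannot show whether a number marks a shared day or batch, which the labels do not say.

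Leaving out each replicate in turn gave 2 to 15 higher and 1 to 18 lower in 3xSR, 16 to 29 and 1 to 6 in MYC-OE, 12 to 29 and 0 to 4 in SRSF2-OE, 5 to 18 higher and 1 lower throughout in SRSF3-OE, and 14 to 37 and 0 to 1 in SRSF7-OE. CYC1 in SRSF2-OE (0.00) ranged from -0.20 (without 1xCtrl replicate 3) to 0.22 (without 1xCtrl replicate 2, adjusted p = 0.0449). The causes were not tested. Summing genes with same-strand overlapping genes, or with named pseudogenes, was chosen after seeing the data. With 3 libraries a group, changes under the sizes called here could go undetected, and so could changes as large where replicates spread widely. In SRSF7-OE NDUFA13 (0.54, adjusted p = 0.18) and NDUFA3 (0.49, adjusted p = 0.169) did not pass, while NDUFB11 (0.51) did.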
